A study of Mus musculus with 2 samples.

Results

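The Bcl2 family was examined in primordial germ cells (PGCs) through 10 of its genes, which were listed by name. They comprised the anti-apoptotic genes Bcl2, Bcl2l1 and Mcl1, the effector genes Bax and Bak1, and the BH3-only genes Bbc3, Pmaip1, Bcl2l11, Bid and Bad. Each was found as 1 locus in each of the 2 deposited files, so the 10 members stood among 23314 gene symbols shared by the files and among 18737 symbols above 0 in at least 1 library.

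The libraries came from E13.5 PGCs, which were sorted by GFP from genital ridges of both sexes after MCH females were mated with Oct4-deltaPE-GFP males (C57BL/6J background). The PGCs were infected at an MOI of 5 with a control virus or with a lentiviral vector for Klf9 over-expression (Klf9-OE), and were cultured for 1 day on gelatin-coated plates. The sample labels describe a medium with bFGF, whereas the study describes one without it, and which of several empty or mCherry vectors served as control and how many embryos were pooled are not stated. Each group had 1 library, so differences could not be tested across replicates, and every interval given reflects estimation error inside 1 library and not the spread between cultures.

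Bcl2 family proteins control the permeability of the outer mitochondrial membrane. BAX and BAK form the pores that release cytochrome c, the anti-apoptotic proteins hold them in check, and BH3-only proteins link signals such as DNA damage or loss of a growth factor to this step by binding the anti-apoptotic proteins or by activating the effectors. In the mouse embryo, BCL-X, the product of Bcl2l1, is needed for PGC survival, and BAX is needed for the death of PGCs that stray from the genital ridge. KLF9 is a zinc-finger factor that binds GC-rich sites and can recruit the Sin3 co-repressor.

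Expression is given as RPKM, a read number scaled by exon length and by the mapped reads of the library, so that levels can be compared between genes. Values in parentheses after an RPKM are the bounds of the 95% interval that Cufflinks assigned to it. For Klf9, the control library had 2.27 RPKM (1.97 to 2.57) and the Klf9-OE library 80.8 (77.0 to 84.5), although reads from the vector and from the gene itself are not separated. The labelled cell type was checked with marker lists. All 12 germ cell markers, such as Ddx4, Dazl and Pou5f1, had a mean RPKM of at least 1. Their summed RPKM was 1585 in control PGCs and 1329 in Klf9-OE PGCs. Beyond their intervals, 9 of them were lower in Klf9-OE PGCs, namely Dppa3, Pou5f1, Nanog, Prdm1, Tfap2c, Nanos3, Dnd1, Kit and Sall4. Dazl was the 1 that was higher, at 351 and 378. The intervals of Ddx4, at 300 and 292, and of Nanos2 overlapped. Of the 12244 genes with a mean RPKM of at least 1, 20.2% were lower and 14.5% were higher by this rule. The summed RPKM of the 9 gonad somatic markers in both files was 22.9 and 31.0, respectively. Of these, 4 were higher (Amh, Gata4, Wt1 and Star, the last listed at 0 in control PGCs only) and Sox9 was lower, at 2.04 and 1.09, while 4 had overlapping intervals. For 6 endothelial markers the sums were 21.0 and 31.0, with Pecam1 and Cdh5 higher, Tek lower (0.735 and 0.439), 3 overlapping and a median log2 fold change of -0.04. Most of both sums was Pecam1, at 16.8 and 24.2, so they mainly follow this gene. Kdr was at 0.367 and 0.465 and Emcn at 0.0298 and 0, both with overlapping intervals. Whether the Pecam1 reads came from PGCs or from endothelial cells was not tested. For the 8 macrophage and blood markers above 0 in at least 1 library they were 6.09 and 5.84, with 1 higher and 1 lower, and Hba-x was listed at 0 in both libraries. Among them, Adgre1 had an RPKM near 0, with 0.0836 and 0.0196, whereas Cd68 had 3.69 and 4.11. Csf1r was the higher one, at 0.307 and 1.18, and Lyz2 the lower one, at 1.00 and 0. In these bulk libraries, fewer cells of a type and less RNA per cell cannot be told apart. The part of these differences in the results on the Bcl2 family was not tested.

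The largest differences among the members were those of Pmaip1, Bcl2, Bbc3 and Bad. The promoters of Bcl2, Bbc3 and Bad, members with a matching RefSeq start site, are shown because their levels differed by more than 1.5-fold between the libraries and KLF9 is known to bind GC-rich sites. Each stretch is the 250 bases upstream of the start site used in the deposited files, taken from RefSeq promoters of the build GRCm38.p6 (mm10) and written 5′ to 3′ on the strand of the gene. Capitals mark the GC box, GGGCGG or its reverse complement CCGCCC. The stretches lie at chr1:106714291-106714540 (minus strand) for Bcl2, chr7:16309333-16309582 (plus strand) for Bbc3 and chr19:6941611-6941860 (plus strand) for Bad.
Bcl2: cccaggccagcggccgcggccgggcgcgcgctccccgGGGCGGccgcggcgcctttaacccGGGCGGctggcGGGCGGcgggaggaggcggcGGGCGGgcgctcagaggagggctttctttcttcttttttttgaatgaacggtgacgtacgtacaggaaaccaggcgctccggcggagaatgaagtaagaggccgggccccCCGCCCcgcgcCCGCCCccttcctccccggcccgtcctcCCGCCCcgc
Bbc3: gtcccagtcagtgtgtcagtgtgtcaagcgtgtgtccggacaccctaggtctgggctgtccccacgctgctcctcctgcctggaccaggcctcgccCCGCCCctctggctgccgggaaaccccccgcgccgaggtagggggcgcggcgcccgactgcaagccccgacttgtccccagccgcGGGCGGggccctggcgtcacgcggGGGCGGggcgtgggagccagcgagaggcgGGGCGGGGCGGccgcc
Bad: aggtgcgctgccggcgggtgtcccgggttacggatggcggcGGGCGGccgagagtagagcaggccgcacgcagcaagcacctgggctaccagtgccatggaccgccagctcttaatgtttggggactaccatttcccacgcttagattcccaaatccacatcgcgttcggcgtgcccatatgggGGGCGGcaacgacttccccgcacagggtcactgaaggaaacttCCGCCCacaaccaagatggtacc

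These stretches held 7 GC boxes at Bcl2, 5 at Bbc3 and 3 at Bad, so both the member that was higher and the pair that were lower in Klf9-OE PGCs carried them. Pmaip1 was not included in this search. Of the other members, 7 had a start site in the deposited files that matched a RefSeq promoter. At least 1 GC box was held by 6 of these 7. Among all 32851 RefSeq promoters, 32.7% held at least 1 in the same window. The Mcl1 window held 1, those of Bax and Bcl2l11 held 2 and 3, and that of Bcl2l1 held 0. The shorter motif CACCC, or its reverse complement GGGTG, which can overlap a GC box, was present in 3 of the 7 windows and in 52.0% of all promoters. Both motifs were searched on both strands. These matches describe the sequence and are not evidence of binding.

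Of the 10 members, 4 had a Cufflinks interval that lay wholly higher in Klf9-OE PGCs, namely Pmaip1, Bcl2, Bcl2l11 and Mcl1. For 3 members, Bbc3, Bad and Bcl2l1, it lay wholly lower, and for Bax, Bak1 and Bid the intervals overlapped. Among all 18737 genes, 11.2% were higher and 14.4% were lower by the same rule. The 12244 genes with a mean RPKM of at least 1 leave out the lowest levels. Of these, 14.5% were higher and 20.2% were lower, against 3 higher and 3 lower among the 9 members above that level. The median log2 fold change of the 10 members, calculated as log2(RPKM + 0.1) in Klf9-OE PGCs minus control PGCs, was 0.10, and that of all 18737 genes was -0.015. For the 9 members with a mean RPKM of at least 1 it was 0.03, and for all 12244 genes at that level it was -0.03.

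Only Pmaip1 and Bcl2 were at least 2-fold apart, whereas 19.3% of all genes, and 6.74% of the 12244 genes with a mean RPKM of at least 1, were 2-fold apart in either direction. The plot of levels by library shows the 10 genes with their intervals.

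**Figure D1:**
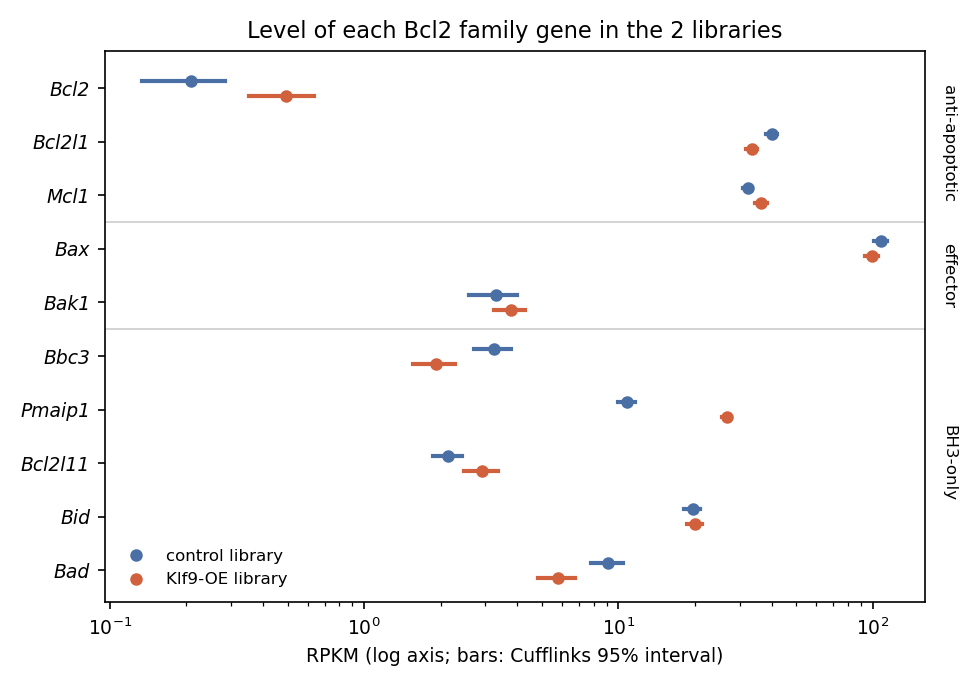
RPKM of each Bcl2 family gene (log axis) in the control library (blue) and the Klf9-OE library (red), grouped by role, with 1 library per group and bars for the Cufflinks 95% interval. Pmaip1 moved from 10.8 to 26.7, and the intervals of Bax, Bak1 and Bid overlapped.

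Among the anti-apoptotic genes, Bcl2l1 and Mcl1 carried nearly all of the RPKM and moved in opposite directions. Bcl2l1 encodes BCL-X, whose long form guards the mitochondrial membrane. Its locus in the files lies on chromosome 2 from 152758732 to 152831728 of mm10, on the minus strand. The RPKM of Bcl2l1 was 40.1 in control PGCs (38.0 to 42.1) and 33.4 in Klf9-OE PGCs (31.7 to 35.0). The Klf9-OE level was thus 0.832 times the control level (95% interval of the ratio 0.775 to 0.894), a log2 fold change of -0.26. Among the 12244 genes with a mean RPKM of at least 1, 20.2% were lower by as much or more, so a difference of this size was common in these libraries. The locus extends over Cox4i2, a neighbouring gene with an RPKM of 0.417 and 0.569. The files give 1 value per gene and do not separate the long and short forms of BCL-X.

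Mcl1 encodes a short-lived anti-apoptotic protein that binds BAK and the BH3-only proteins BIM and NOXA. It lies on chromosome 3 from 95658721 to 95663178. Its RPKM was 32.2 in control PGCs (31.0 to 33.3) and 36.5 in Klf9-OE PGCs (34.6 to 38.4), which corresponds to a ratio of 1.13 (1.06 to 1.21) and a log2 fold change of 0.18. The order of both genes therefore changed, with Bcl2l1 above Mcl1 in control PGCs and intervals that overlapped in Klf9-OE PGCs. The level of Mcl1 relative to Bcl2l1 was 0.802 in control PGCs and 1.09 in Klf9-OE PGCs.

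Bcl2, the founding member of the family, was the lowest of the 10 genes in both libraries. It lies on chromosome 1 from 106538178 to 106714290 on the minus strand. Its RPKM went from 0.209 (0.134 to 0.284) to 0.495 (0.352 to 0.637), and the intervals did not overlap. The ratio was 2.37, but its 95% interval ran from 1.49 to 3.75, the widest of the members. With the pseudocount of 0.1 the log2 fold change was 0.94, which understates the ratio of so low a gene. Even at the higher level, the RPKM of Bcl2l1 was 67.4 times that of Bcl2, compared with 192 times in control PGCs. An antisense gene, D630008O14Rik, shares 558 exonic bases with Bcl2 in the GENCODE annotation. The library kit does not mark strand, so reads of the pair cannot be told apart.

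The summed RPKM of the 3 anti-apoptotic genes was 72.4 in control PGCs (70.1 to 74.8) and 70.3 in Klf9-OE PGCs (67.8 to 72.9). These intervals overlapped, and the log2 ratio of the sums was -0.04 as deposited and 0.02 when both libraries were scaled to the same sum, so no direction is given. The difference, Klf9-OE minus control, was -6.72 RPKM for Bcl2l1, 4.31 RPKM for Mcl1 and 0.286 RPKM for Bcl2.

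Bax was the most abundant member in both libraries, with a higher level in control PGCs than 96.0% of all genes. It encodes the effector that moves from the cytosol to mitochondria when a cell is committed to die, and lies on chromosome 7 from 45461695 to 45466898 on the minus strand. Its RPKM was 107 in control PGCs (101 to 114) and 98.8 in Klf9-OE PGCs (92.9 to 105). The ratio was 0.920, with a 95% interval of 0.845 to 1.00, and the intervals of both libraries overlapped. Bax shares 192 exonic bases, 12.2% of its own, with the protein-coding gene Gm45808 on the same strand, and reads in them cannot be assigned to either gene with certainty.

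Bak1, which encodes the effector that resides in the outer mitochondrial membrane, was expressed far below Bax. It lies on chromosome 17, where the control file gives 27019812 to 27028763 on the minus strand. Its RPKM was 3.30 in control PGCs (2.59 to 4.01) and 3.77 in Klf9-OE PGCs (3.24 to 4.30), with overlapping intervals and a ratio of 1.14 (0.885 to 1.48). A difference of up to 1.48-fold is therefore within the error of estimation. Bak1 shares 614 exonic bases, 25.5% of its own, with Ggnbp1 on the other strand, whose RPKM was 5.94 and 6.23. The RPKM of Bax was 32.6 times that of Bak1 in control PGCs and 26.2 times in Klf9-OE PGCs, so nearly all effector RPKM came from Bax in both. The summed RPKM of the effectors was 111 (104 to 117) and 103 (96.7 to 109), respectively, with overlapping intervals.

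The BH3-only genes differed in both directions, with Pmaip1 and Bcl2l11 higher, Bbc3 and Bad lower, and overlapping intervals for Bid. Pmaip1 encodes NOXA, which binds MCL1 with preference and promotes its breakdown, and lies on chromosome 18 from 66458604 to 66465558. Its RPKM was 10.8 in control PGCs (9.99 to 11.6) and 26.7 in Klf9-OE PGCs (25.5 to 27.8). The level in Klf9-OE PGCs was 2.47 times that in control PGCs, with a 95% interval of 2.27 to 2.69 and a log2 fold change of 1.30. Only 278 of the 12244 genes with a mean RPKM of at least 1, or 2.27%, were higher by as much or more. The widths of its intervals correspond to 722 reads in the control library and 2194 in the Klf9-OE library. Whether reads were counted in pairs in the Klf9-OE library was not tested, and the study describes single-end reads. Such read numbers followed the RPKM within 10% for only 5 of the 10 members. Their Klf9-OE over control ratio was compared with that expected from the RPKM and the depth of both libraries. It was 0.369 of the expected ratio for Mcl1, 0.404 for Bcl2l11 and 0.545 for Bcl2. For Bak1 and Bbc3 it was 1.69 and 1.12 times the expected ratio. These interval widths therefore do not reflect read numbers alone, and the comparison does not show which library departs.

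Bbc3 encodes PUMA, which binds every anti-apoptotic member of the family. It lies on chromosome 7 from 16309583 to 16318334 on the plus strand. In contrast to Pmaip1, it was lower in Klf9-OE PGCs, with an RPKM of 3.24 in control PGCs (2.70 to 3.78) and 1.91 in Klf9-OE PGCs (1.56 to 2.27). The ratio was 0.591 (0.460 to 0.760) and the log2 fold change was -0.73. Of the 12244 genes, 5.36% were lower by as much or more. Bax, Bbc3 and Pmaip1 are known targets of p53, encoded by Trp53. Of these, Bbc3 was lower and Pmaip1 was higher, while the intervals of Bax overlapped. A part of p53 in these levels was not tested.

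Bad encodes a BH3-only protein that binds BCL-X and BCL2 and is held inactive when AKT phosphorylates it. It lies on chromosome 19 from 6941861 to 6951905 on the plus strand. The RPKM of Bad was 9.12 in control PGCs (7.77 to 10.5) and 5.81 in Klf9-OE PGCs (4.85 to 6.77). The ratio was 0.637 (0.510 to 0.796), the log2 fold change was -0.64, and 6.48% of the 12244 genes were lower by as much or more. Bad shares 524 exonic bases, 20.5% of its own, with Gpr137 on the other strand, whose RPKM also differed, at 8.28 and 5.84. Reads in the shared bases cannot be assigned to either gene, and the part of Gpr137 in the value of Bad was not tested. Because Bad was lower by a larger factor than Bcl2l1, the RPKM of Bcl2l1 was 4.40 times that of Bad in control PGCs and 5.74 times in Klf9-OE PGCs.

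Bcl2l11 encodes BIM, which is induced when survival factors are withdrawn. It lies on chromosome 2 from 128126038 to 128162547. Its RPKM was 2.14 in control PGCs (1.87 to 2.42) and 2.91 in Klf9-OE PGCs (2.46 to 3.36), which corresponds to a ratio of 1.36 (1.11 to 1.66) and a log2 fold change of 0.42. The bounds were only just apart, and they overlapped when the Klf9-OE interval was widened to allow for a possible counting of reads in pairs.

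Bid encodes the link from death receptors to mitochondria, which caspase-8 cleaves to an active form. Bid lies on chromosome 6 from 120893119 to 120916856 on the minus strand, and it was the member that differed least. Its RPKM was 19.6 in control PGCs (18.2 to 21.0) and 19.9 in Klf9-OE PGCs (18.6 to 21.3). The 95% interval of the ratio, 0.925 to 1.12, does not reach a difference of 1.5-fold in either direction. Bid shares 628 exonic bases with Bcl2l13 on the other strand, another gene of the family, whose RPKM was 10.6 and 11.1.

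**Figure D2:**
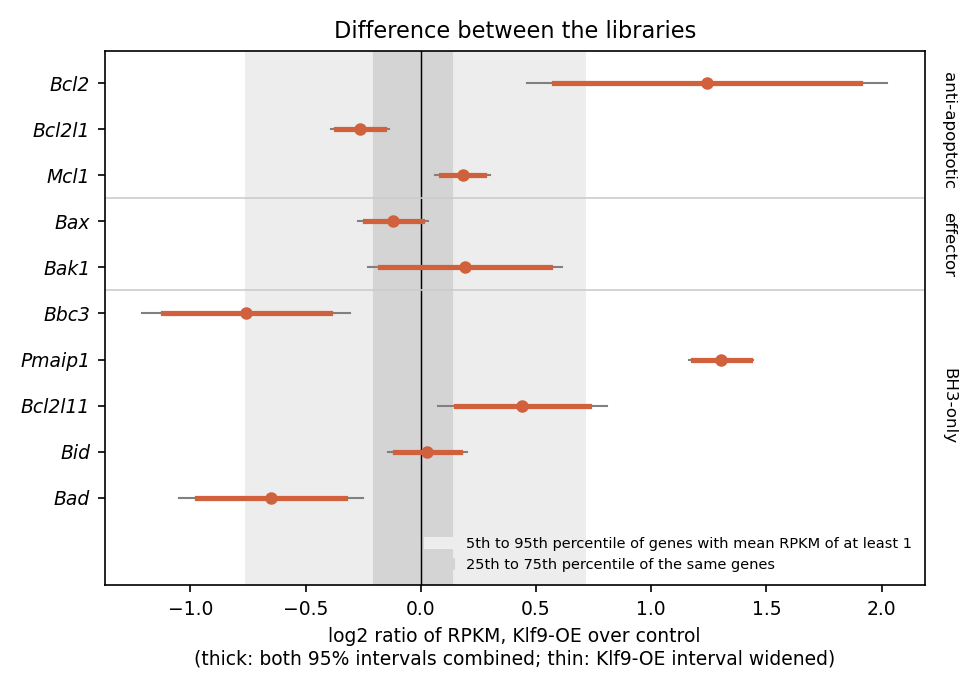
Log2 ratio of RPKM in the Klf9-OE library over the control library for each Bcl2 family gene, with thick bars for the combined 95% intervals of both libraries and thin bars with the Klf9-OE interval widened by the square root of 2. Dark and light grey bands span the 25th to 75th and the 5th to 95th percentile of the log2 fold change of genes with a mean RPKM of at least 1, and Pmaip1 lies beyond the light band.

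The plot of ratios places these differences beside those of the other genes. The central 90% of the 12244 genes had log2 fold changes from -0.76 to 0.71, and of the 9 members with a mean RPKM of at least 1, Pmaip1 alone lay outside that range. Bbc3, at -0.73, was just inside it. Bcl2 also lay outside, but its own mean RPKM was below 1.

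Summed over the 5 BH3-only genes, the RPKM was 44.9 in control PGCs (42.7 to 47.0) and 57.2 in Klf9-OE PGCs (55.1 to 59.3), giving a ratio of 1.28 and intervals that did not overlap. The largest part was Pmaip1, which was 15.9 RPKM higher. Without it, the other 4 genes summed to 34.1 in control PGCs and 30.6 in Klf9-OE PGCs, a ratio of 0.898. In control PGCs, Bid was the most abundant BH3-only gene, with 43.6% of the summed RPKM, and Pmaip1 held 24.1%. In Klf9-OE PGCs, Pmaip1 held 46.6% and Bid 34.9%. The share of Bad went from 20.3% to 10.1% and that of Bbc3 from 7.22% to 3.35%, whereas that of Bcl2l11 was 4.78% and 5.09%.

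**Figure D3:**
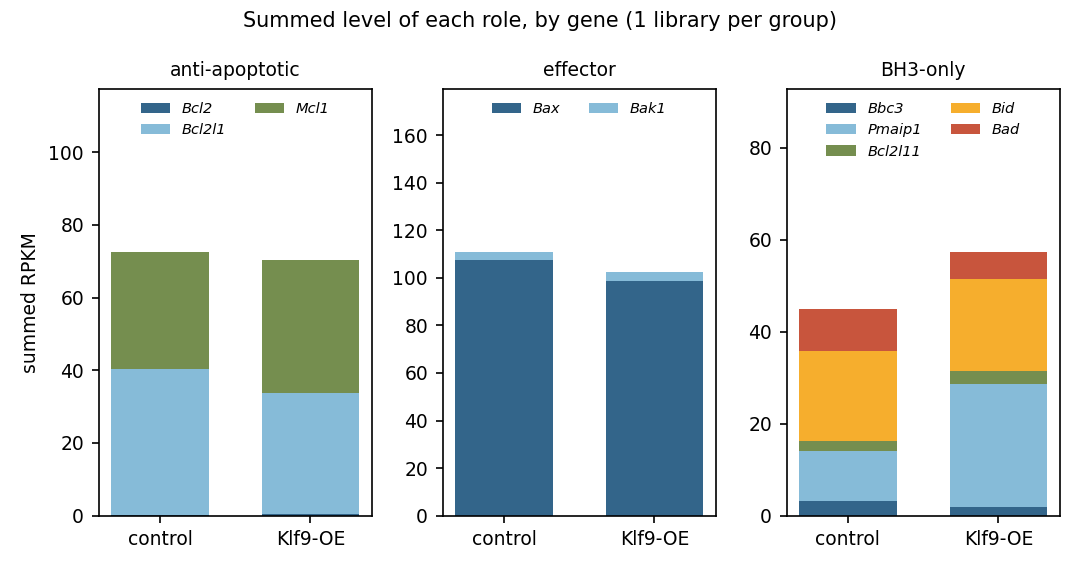
Summed RPKM of the anti-apoptotic, effector and BH3-only genes, stacked by gene, in the control and the Klf9-OE library (1 library per group, no error bars, and a separate vertical axis from 0 in each panel). The BH3-only sum is higher in Klf9-OE PGCs, at 57.2 against 44.9, and the added part is Pmaip1.

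The members as a whole summed to 228 RPKM in control PGCs and 230 in Klf9-OE PGCs, a ratio of 1.01. The anti-apoptotic genes made up 31.8% and 30.5% of this sum, the effectors 48.6% and 44.6%, and the BH3-only genes 19.7% and 24.9%, respectively. Anti-apoptotic RPKM was therefore 0.654 and 0.685 times effector RPKM, whereas relative to BH3-only RPKM it was 1.61 times in control PGCs and 1.23 times in Klf9-OE PGCs. For Mcl1 and Pmaip1, whose products bind each other, the level of Mcl1 was 2.98 times that of Pmaip1 in control PGCs and 1.37 times in Klf9-OE PGCs. These ratios of levels were chosen after the values were seen, and they describe mRNA and not protein.

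In control PGCs the order of the members, from the highest, was Bax, Bcl2l1, Mcl1, Bid, Pmaip1, Bad, Bak1, Bbc3, Bcl2l11 and Bcl2. The intervals of neighbours in this order overlapped for Pmaip1 and Bad and for Bak1 and Bbc3. In Klf9-OE PGCs the order was Bax, Mcl1, Bcl2l1, Pmaip1, Bid, Bad, Bak1, Bcl2l11, Bbc3 and Bcl2, with overlapping intervals for Mcl1 and Bcl2l1 and for Bak1 and Bcl2l11. Pmaip1 thus went from rank 5 to rank 4, while Bax, Bad, Bak1 and Bcl2 kept their ranks.

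**Figure D4:**
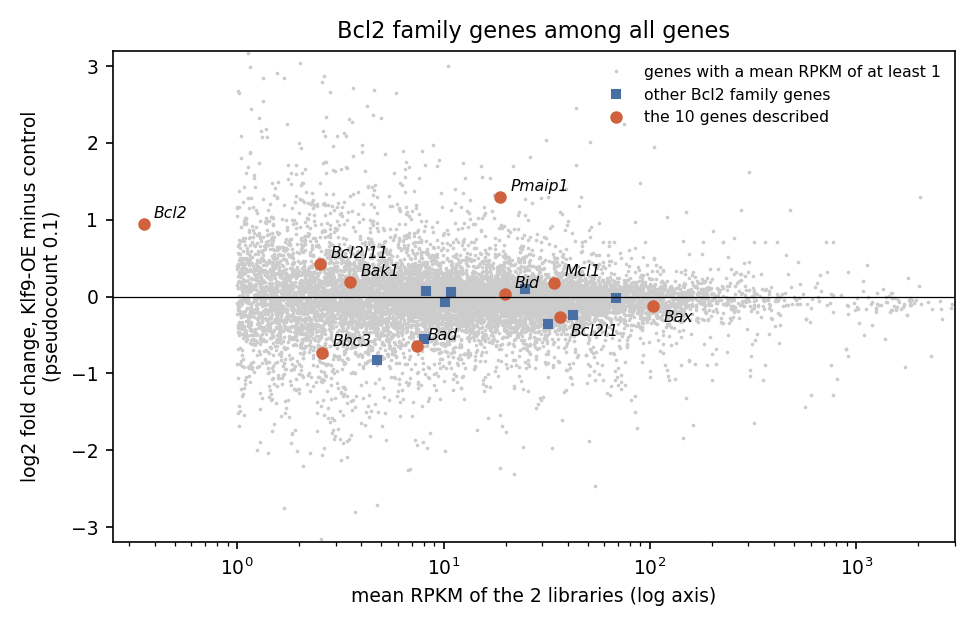
Log2 fold change (Klf9-OE minus control, pseudocount 0.1) against the mean RPKM of both libraries (log axis) for the 10 Bcl2 family genes described (red circles), 9 other genes of the family (blue squares) and genes with a mean RPKM of at least 1 (grey, of which 258 lie beyond the axes). Pmaip1 lies at 1.30, above each of the 9 other family genes.

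Beyond the 10 members, 17 further genes of the family were listed, of which 16 were above 0 in at least 1 library and 9 had a mean RPKM of at least 1. By the intervals, 0 of the 16 were higher and 3 were lower in Klf9-OE PGCs, and their median log2 fold change was -0.05. Over all 18737 genes, 11.2% were higher and 14.4% were lower, so the count of lower genes was near that share. The 3 were Bik and Bmf, which encode further BH3-only proteins, and Bnip3, which encodes a mitochondrial receptor for mitophagy. For Bik the RPKM was 6.09 in control PGCs (4.998 to 7.19) and 3.38 in Klf9-OE PGCs (2.64 to 4.13), and the log2 fold change was -0.83. For Bmf it was 9.60 (8.96 to 10.2) and 6.55 (6.12 to 6.97), with a log2 fold change of -0.55. Bnip3 had 36.0 (34.2 to 37.9) and 28.1 (26.6 to 29.6). The other 6 had overlapping intervals. Their RPKM in control and Klf9-OE PGCs was 10.4 and 9.89 for Bcl2l2, which encodes the anti-apoptotic BCL-W and whose control interval was wide (1.28 to 19.5), and 8.01 and 8.43 for Bok. It was 24.0 and 25.7 for Bcl2l12 and 45.9 and 39.0 for Bnip2. Bnip3l, a paralog of Bnip3, had 68.7 and 67.8, and Bcl2l13 is given above. Hrk, the BH3-only gene best known from neurons, stayed below 1, at 0.230 and 0.195. The Bcl2a1 genes are near-identical copies whose reads cannot be assigned with certainty, and all were below 1.

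Downstream of the mitochondrial step, 5 of 9 genes of the apoptosome and caspases were lower and 1 was higher, with a median log2 fold change of -0.19. Genes with a mean RPKM of at least 1 were also more often lower (20.2%) than higher (14.5%). With the widened Klf9-OE interval, 4 of the 9 were lower, against 16.8% of those genes. Dffa, which encodes the inhibitor of the caspase-activated DNase, had an RPKM of 18.6 (17.05 to 20.1) against 9.92 (9.16 to 10.7), and its log2 fold change was -0.90. Cycs, encoding cytochrome c, was the gene that was higher, at 39.9 (37.8 to 42.1) and 44.6 (43.2 to 46.0).

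Among 12 genes of mitochondrial release and of the inhibitors of apoptosis (IAP), 2 were higher and 2 were lower, with a median of -0.08. These counts are near the shares of all genes with a mean RPKM of at least 1, of which 14.5% were higher and 20.2% were lower. Vdac1, a channel of the outer membrane, went from 16.4 (15.2 to 17.6) to 20.8 (19.6 to 22.1), and Birc6, a large IAP, from 26.1 (25.05 to 27.1) to 29.2 (28.1 to 30.2). Birc2 and Birc3, which encode the cellular IAPs, were lower. The level of Birc3 went from 3.87 (3.33 to 4.40) to 2.57 (2.22 to 2.91) and that of Birc2 from 39.1 (37.1 to 41.1) to 32.2 (30.7 to 33.6).

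In the death receptor pathway, 1 of 11 genes was higher and 1 was lower, with a median of 0.07, against 11.2% and 14.4% of all genes. Fas, a receptor that is also a p53 target, was at 1.16 RPKM (0.736 to 1.59) in the control library and at 5.41 in the Klf9-OE library, with a wide interval of 2.33 to 8.49 there. Fadd, its adaptor, went from 4.503 (4.002 to 5.003) to 3.50 (3.10 to 3.90). With the widened Klf9-OE interval, 0 of the 11 genes were higher and 0 were lower.

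Of the genes upstream of the family, 4 of 14 were higher and 4 were lower, and the median was -0.05, where 14.5% and 20.2% of genes with a mean RPKM of at least 1 were higher and lower. Mapk8, which encodes the kinase JNK1, differed most, with 14.5 (13.7 to 15.3) in control PGCs against 35.1 (32.7 to 37.5), and its log2 fold change was 1.27. Trp53 went from 26.6 (23.6 to 29.7) to 34.7 (32.6 to 36.7), and Usp9x, a deubiquitinase that stabilises MCL1, from 88.1 (84.8 to 91.3) to 100.3 (96.6 to 104). Kit, the receptor for the survival signal Steel factor, was lower, from 23.0 (21.9 to 24.1) to 16.8 (16.0 to 17.6). Akt1, whose product phosphorylates BAD, went from 24.8 (23.4 to 26.3) to 19.8 (18.7 to 21.0), and Foxo1 from 21.8 (21.0 to 22.5) to 18.6 (17.97 to 19.3). Ddit3 was listed at 0 in both libraries, and Huwe1 was not analysed here.

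**Figure D5:**
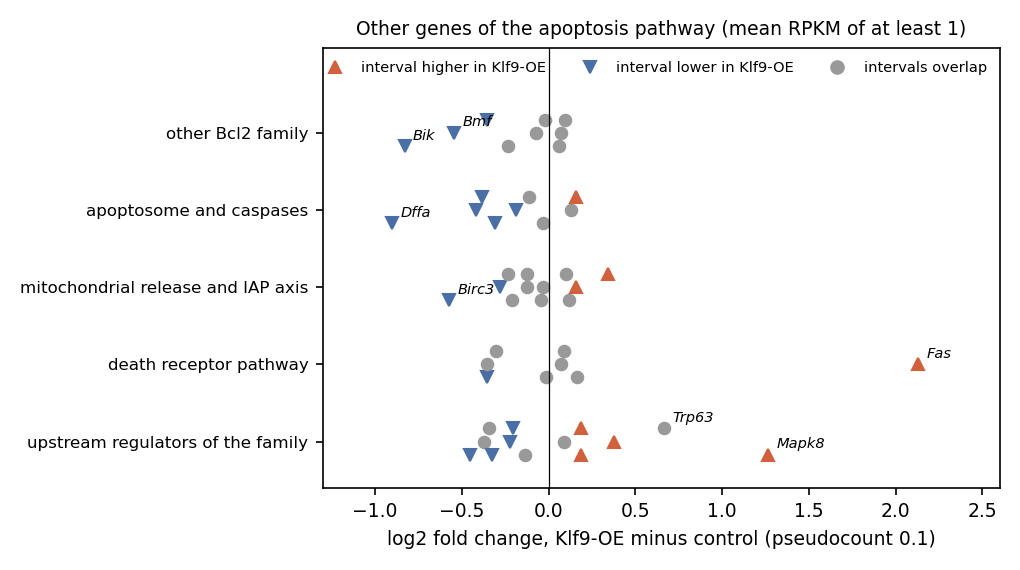
Log2 fold change (Klf9-OE minus control, pseudocount 0.1) of the other apoptosis genes with a mean RPKM of at least 1, 1 row per list. Triangles mark genes whose Cufflinks 95% intervals lie wholly higher (red, pointing up) or lower (blue, pointing down) in Klf9-OE PGCs, and grey circles mark overlapping intervals. Of the 9 genes of the apoptosome and caspases, 5 point down, against 20.2% of all genes with a mean RPKM of at least 1.

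If reads of the Klf9-OE library were counted in pairs, its intervals would be too narrow by the square root of 2. This was not tested here, and the study describes single-end reads. The control intervals were not widened, and the interval widths given above do not show which library departs. With the Klf9-OE intervals widened by that factor, 3 members were higher (Bcl2, Mcl1 and Pmaip1) and 3 were lower (Bad, Bbc3 and Bcl2l1). Bcl2l11 was thus the member lost. Over the 12244 genes, 11.6% were then higher and 16.8% were lower. The widened interval of Pmaip1 in Klf9-OE PGCs was 25.04 to 28.3, still above the control interval.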

How the data were processed

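RNA-seq of 1 control and 1 Klf9-OE library was used. The authors aligned the single-end reads (TopHat2 and Bowtie, build mm10), estimated expression per locus with Cufflinks, which also assembled transcripts in each library, and deposited FPKM with bounds of a 95% interval. For single-end reads the FPKM equals the RPKM. The authors' Cuffdiff comparison was not used. No read totals were given, so reads behind a value were inferred by squaring the RPKM over its standard error. The standard error was taken as 0.5 of the distance to the upper bound. The depth of both libraries was compared by the median over 9902 genes with 1 start site and RPKM above 1 in both, which gave 1.21 for Klf9-OE over control.

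Loci without a gene name and loci whose estimate failed (1 in control, 5 in Klf9-OE) were left out, and RPKM was summed per symbol. No joint symbol held a member. Genes were compared by overlap of the intervals, by a 2-fold limit in either direction, and by log2(RPKM + 0.1), which understates changes of low genes. The interval of a ratio combined both intervals on the log scale. Coordinates are those of the files, with 1-based starts, and overlapping genes were taken from GENCODE M21. The calculations were tested on simulated data, whose intervals followed read numbers alone and which left out genes with as few reads as Bcl2. Intervals that depart from read numbers, as found for some members, were therefore not tested.

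The members and lists were chosen with earlier results of these data known. The genes named are all members, the other family genes with a mean RPKM of at least 1, and, per list, up to 3 highest and 3 lowest log2 fold changes with intervals apart and a mean RPKM of at least 1. Ddit3, Huwe1, Hrk, Bcl2a1 genes and single markers were named in addition, after their values were seen. Insl3 and Pdgfra, further gonad markers, were not analysed. Some genes that the rule would name are not reported here. Python 3.11.15, numpy 2.4.6, pandas 2.3.3 and matplotlib 3.10.9 were used.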

Additional observations from a re-analysis of the deposited data

How the results depend on the processing

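With 1 library per group, no replicate could be left out, no paired fit could be made, and the spread between cultures is unknown. The alternatives were the widened Klf9-OE interval, scaling of Klf9-OE RPKM to an equal upper quartile or an equal sum (shifts of 0.02 and 0.06 on the log2 scale), pseudocounts of 0.01 and 1, a mean RPKM of at least 1, the highest locus per symbol, and loci under joint symbols. Each member kept its sign under the rescaled values, although for Bax, Bak1 and Bid, whose intervals overlapped, no direction is drawn. The other settings could not change a sign. A pseudocount is added to both libraries, each member had 1 locus per library, and no joint symbol held a member. Pmaip1 stayed between 1.23 and 1.36, Bbc3 between -0.75 and -0.54, Bad between -0.65 and -0.57, and Bcl2l1 between -0.26 and -0.20. Bcl2 ranged from 0.31 with a pseudocount of 1 to 1.20 with 0.01, which follows from its low RPKM. The number of members at least 2-fold apart was 1 in place of 2 with a pseudocount of 1 and with a mean RPKM of at least 1, since Bcl2 was then lost or left out. With the widened interval, the death receptor genes apart numbered 0 in each direction. The median of the members went from 0.10 to 0.03 with a mean RPKM of at least 1. The log2 ratio of the anti-apoptotic sums turned from -0.04 to 0.02 with an equal sum. Rescaling changed none of the 4 higher and 3 lower members, and the other counts stayed within 1.5 times their value.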

Other observations

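With Bik and Bmf added to the 5 BH3-only members, a grouping made after their values were seen, 7 BH3-only genes had a mean RPKM of at least 1. Of these, 2 (Pmaip1 and Bcl2l11) were higher and 4 (Bbc3, Bad, Bik and Bmf) were lower in Klf9-OE PGCs by the Cufflinks intervals, and Bid was neither. Of all genes with a mean RPKM of at least 1, 14.5% were higher and 20.2% were lower. With the widened Klf9-OE interval, Bcl2l11 was no longer higher. Their summed RPKM was 60.5 in control PGCs and 67.2 in Klf9-OE PGCs. Without Pmaip1 the other 6 summed to 49.8 and 40.5, a ratio of 0.814. This ratio follows in part from leaving out the gene that rose most and adding genes already seen to be lower. No interval was calculated for these sums, so no direction is drawn from them.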
